A study of Mus musculus with 4 samples.

Results

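The genes described here encode the postsynaptic scaffold proteins of the DLGAP (Dlgap1 to Dlgap4), SHANK (Shank1 to Shank3) and HOMER (Homer1 to Homer3) families, 10 of the 26031 annotated genes considered. Mouse embryonic stem (ES) cells, pluripotent cells grown with LIF, and mouse embryonic fibroblasts (MEFs) were each studied as LSH knockout and wild-type cells, with 1 library for each of the 4 groups. LSH is an SNF2-family chromatin remodeler encoded by Hells; the labels give neither the knockout allele nor the embryos' age, nor whether a group was 1 clone. DNA fragments bearing 5-hydroxymethylcytosine (5hmC), the oxidised form of 5-methylcytosine, were tagged, captured and sequenced. The data are 2 lists, 1 per cell type, of the 5 kb genome bins that the authors called different between knockout and wild type. A list gives positions only, so a listed bin had a 5hmC difference of unknown size and direction, and no replicate error or test exists. The genes were chosen by protein family with listed bins already in view, and every listed bin overlapping the body of a gene or the 5 kb upstream of its start counts as belonging to it. Counts of listed bins therefore describe the genes and are not evidence that they stand out. The labelled cell types could not be checked against marker genes, because the lists hold no expression.

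At excitatory synapses these proteins form layers beneath the membrane. DLGAP proteins bind the PSD-95 family, which holds NMDA-type glutamate receptors, and also bind the PDZ domain of SHANK proteins. The proline-rich part of SHANK binds HOMER, whose EVH1 domain also binds group I metabotropic glutamate receptors and inositol trisphosphate receptors. The genes are best known for their roles in neurons. 5hmC is made by TET enzymes mainly at CpG dinucleotides, so the number of CpG in a bin sets how many sites can carry it.

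The following 150-base windows are those with the most CpG, outside annotated UTRs, in 8 of the listed bins. They are shown because they hold the densest potential 5hmC sites of the Dlgap3 stretch and of the large Shank exons. Intronic windows of MEF bins are given beside them, so list and coding content mostly differ together. All are on the plus strand of mm9, which is the coding strand of these genes, and capitals mark each CpG.
Dlgap3, ES bin, exon 4, chr4:126876943-126877092: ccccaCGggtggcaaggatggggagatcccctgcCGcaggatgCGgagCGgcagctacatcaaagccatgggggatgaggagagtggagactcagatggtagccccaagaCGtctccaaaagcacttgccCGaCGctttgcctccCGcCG
Dlgap3, ES bin, exon 7, chr4:126891955-126892104: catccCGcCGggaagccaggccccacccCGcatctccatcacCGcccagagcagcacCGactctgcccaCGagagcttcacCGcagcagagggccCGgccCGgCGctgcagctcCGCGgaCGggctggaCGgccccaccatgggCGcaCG
Dlgap3, ES bin, intron, chr4:126909266-126909415: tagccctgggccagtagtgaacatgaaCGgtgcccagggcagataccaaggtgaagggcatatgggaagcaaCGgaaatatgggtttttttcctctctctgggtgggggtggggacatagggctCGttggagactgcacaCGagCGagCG
Dlgap3, ES bin, exon 12, chr4:126913428-126913577: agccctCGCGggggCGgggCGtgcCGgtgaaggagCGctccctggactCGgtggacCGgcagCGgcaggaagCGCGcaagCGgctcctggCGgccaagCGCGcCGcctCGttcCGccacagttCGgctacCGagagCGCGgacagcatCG
Shank1, ES bin, exon 24, chr7:51607939-51608088: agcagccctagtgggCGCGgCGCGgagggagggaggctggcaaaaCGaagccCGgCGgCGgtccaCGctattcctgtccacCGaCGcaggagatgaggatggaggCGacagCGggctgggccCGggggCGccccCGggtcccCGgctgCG
Shank2, ES bin, exon 22, chr7:151596840-151596989: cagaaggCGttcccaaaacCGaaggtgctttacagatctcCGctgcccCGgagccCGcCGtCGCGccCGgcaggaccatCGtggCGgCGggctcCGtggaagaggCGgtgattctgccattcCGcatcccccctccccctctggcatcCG
Dlgap1, MEF bin, intron, chr17:71104321-71104470: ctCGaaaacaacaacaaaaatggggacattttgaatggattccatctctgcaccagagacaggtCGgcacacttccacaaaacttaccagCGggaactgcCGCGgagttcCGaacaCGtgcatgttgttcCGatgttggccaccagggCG
Dlgap4, MEF bin, intron, chr2:156556494-156556643: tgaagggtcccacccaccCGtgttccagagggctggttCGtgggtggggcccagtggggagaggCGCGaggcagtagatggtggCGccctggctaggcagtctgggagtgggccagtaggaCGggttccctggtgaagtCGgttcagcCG
The Dlgap3 windows hold 9, 16, 6 and 23 CpG in that order. Those in Shank1 and Shank2 hold 18 and 16, and the MEF windows of Dlgap1 and Dlgap4 hold 9 and 8. Windows of the listed ES bins not shown hold from 6 (Shank3) to 12 CpG (Homer2). Those of the MEF bins not shown hold from 6 (Shank2) to 7 (Dlgap4). The windows in exons are coding over all 150 bases. The MEF window of Dlgap1 is in an intron of that gene but also lies inside Gm16952, a lincRNA gene on the opposite strand. It is within 1 kb of the start of Gm16952.

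The scaffold genes carried 18 listed ES bins and 6 listed MEF bins among the 534 bins of their regions. This was 3.37% of their bins in ES cells [2.01% to 5.28%] and 1.12% in MEFs [0.413% to 2.43%], beside 1.67% and 1.75% of all 511186 bins with sequence. Brackets give exact 95% binomial intervals, which cover counting error over bins only; neighbouring bins are not independent. At least 1 ES bin lay in 8 of the 10 genes and at least 1 MEF bin in 3, against 19.8% and 14.1% of all genes. Every gene with a MEF bin also had an ES bin, and Homer1 and Homer3 had neither. The 4 DLGAP genes had 13 ES and 5 MEF bins, the 3 SHANK genes 4 and 1, and the 3 HOMER genes 1 and 0. Gene length varied widely, from 11.5 kb (Homer3) to 852 kb (Dlgap1), with a median of 104 kb against 13.6 kb over all genes. Among the longest 10% of all genes, which include 6 of the scaffold genes, 46.4% had an ES bin and 45.5% a MEF bin, so counts per gene must be read beside length. Each list rests on 1 knockout and 1 wild-type library of unknown depth, so cell type and the making of the lists cannot be told apart in any ES to MEF comparison here.

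**Figure D1:**
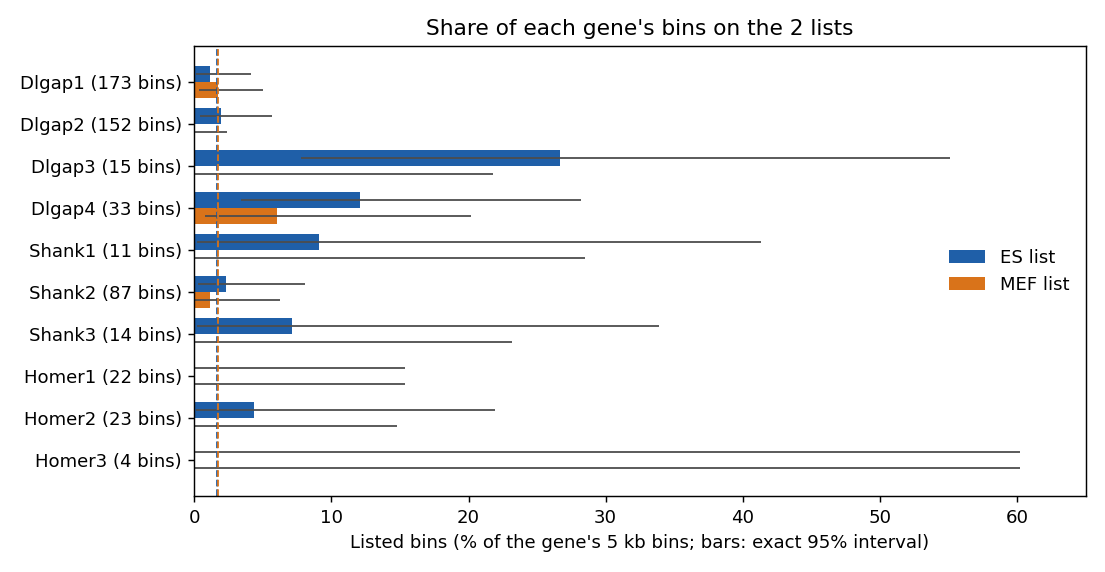
Percent of each gene's 5 kb bins on the ES list (blue) and the MEF list (orange), with exact 95% binomial intervals as lines and the number of bins beside each name; dashed lines mark 1.67% (ES) and 1.75% (MEF) of all bins. Dlgap3 has the highest share, 26.7% in ES cells, and no MEF bin.

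Dlgap3 (chromosome 4, 126846448 to 126914266, plus strand) had the highest share of listed bins among the 10 genes. Of its 15 bins 4 were on the ES list, or 26.7% [7.79% to 55.1%], and 0 were on the MEF list [0% to 21.8%]. The gene is 67.8 kb long, and of the 2603 genes of 49.3 to 97.3 kb 19 had 4 or more ES bins, Dlgap3 included. These 4 bins were in view when the gene was chosen, and nothing is read from its place among those genes. The ES bins joined within 10 kb into a stretch of 40 kb from 126875001 to 126915000, in the distal part of the gene. Unlisted bins lay between them, from 126880001 to 126890000 and from 126895001 to 126905000. Both gaps equal the joining limit of 10 kb. The first bin (126875001) held exons 4 and 5 of the 12 exons in the transcript with the longest coding sequence, with 279 coding bases. The next (126890001) held exons 6 to 8 with 614 coding bases. The bin from 126905001 was intronic, and the adjacent one from 126910001 held exons 9 to 12 with 937 coding bases. Together the 4 bins held 1830 of the 2931 coding bases of Dlgap3.

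The CpG density of the Dlgap3 ES bins was 16.6, 24, 8.8 and 35.4 CpG per kb from the first to the last. They ranked 6, 3, 13 and 2 among the 15 bins of the gene, so the stretch included CpG-rich coding bins and 1 bin near the low end of the ranking. The densest bin of the gene, at its start, had 38.6 CpG per kb and was on neither list. Likewise unlisted was the bin holding exon 3, the largest coding exon with 1101 coding bases, at 20 CpG per kb. None of the 4 ES bins had over 4.17% of repeated sequence. Outside the stretch the nearest ES bins lay 191 kb upstream of the gene start and 106 kb downstream of its end. In MEFs the nearest lay 416 kb upstream and 181 kb downstream, so no MEF bin lay within 100 kb of the gene. No other annotated gene overlaps Dlgap3; the nearest protein-coding gene downstream, BC003266, starts 6.76 kb past its end.

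**Figure D2:**
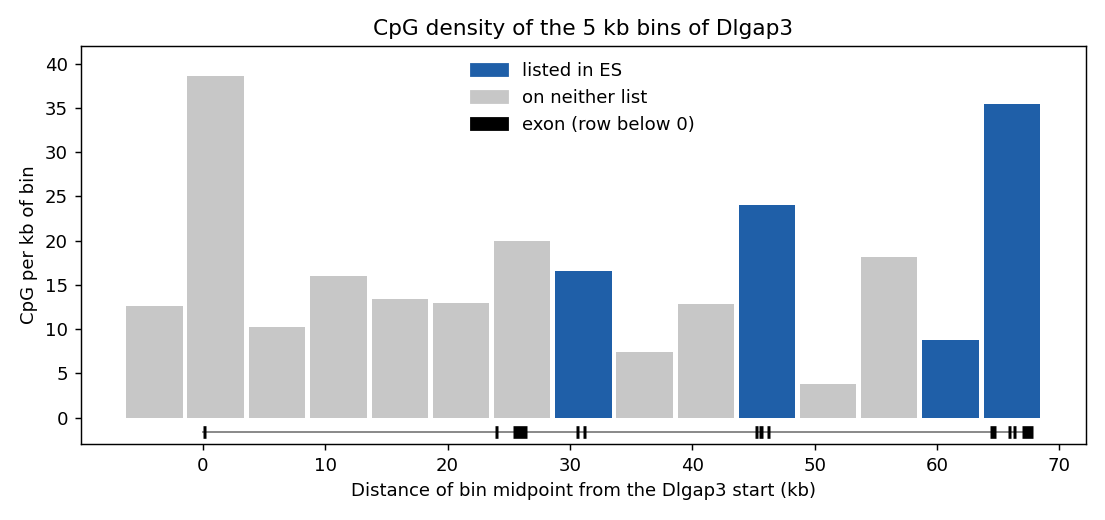
CpG per kb (vertical axis) of the 15 bins of Dlgap3 by distance of the bin midpoint from the gene start in kb (horizontal axis), ES bins in blue and bins on neither list in grey, exons as black marks below 0. The 4 ES bins lie between 31.1 and 66.1 kb, and the CpG-dense start bin (38.6 CpG per kb) is not listed.

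The other DLGAP genes encode the same class of adaptor between PSD-95 and SHANK. Dlgap4 (chromosome 2, 156439441 to 156590099) had 4 ES bins and 2 MEF bins among 33, or 12.1% [3.4% to 28.2%] and 6.06% [0.743% to 20.2%]. Its ES bins, from 156455001, 156485001, 156520001 and 156580001, were spread from 18.1 to 143 kb past the gene start. Its MEF bins, from 156555001 and 156560001, touched each other at 118 and 123 kb. None of these 6 bins held a coding base of Dlgap4, and the first ES bin also overlaps a pseudogene, Gm14172. The ES bins had 12.2, 16.2, 19.8 and 9.2 CpG per kb and the MEF bins 11.6 and 9, against a median of 14.2 over the gene, so the listed bins of Dlgap4 lay on both sides of its median. The last ES bin had 20.5% repeated sequence, the highest among the listed bins of the 10 genes.

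Dlgap1 (chromosome 17, 70318413 to 71170753) had 2 ES bins and 3 MEF bins among 173, or 1.16% [0.14% to 4.11%] and 1.73% [0.359% to 4.98%]. It was the only scaffold gene with more MEF than ES bins. The ES bins lay in an intron at 424 kb (from 70740001) and over exon 11 at 844 kb (from 71160001), with 216 coding bases in the second. The MEF bins lay at 554, 784 and 824 kb (from 70870001, 71100001 and 71140001). The bin from 71100001 also overlaps Gm16952, a lincRNA on the opposite strand (71094669 to 71104922), so its listing cannot be assigned to Dlgap1 alone. It was the most CpG-dense MEF bin of the scaffold genes, at 21.8 CpG per kb.

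Dlgap2 (chromosome 8, 14095865 to 14847684) had 3 ES bins among 152, or 1.97% [0.409% to 5.66%], and 0 MEF bins. An intronic bin (from 14110001) lay 16.6 kb past the start. The others (from 14820001 and 14830001) lay at 727 and 737 kb and held exons 9, 10 and 12 of 15, with 395 and 416 coding bases. The nearest MEF bin was 122 kb from the gene's region.

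SHANK proteins are the large scaffolds that join DLGAP to HOMER, and all 3 of their genes had an ES bin. With all genes split by length into 10 equal groups, 25.5% of genes in the group of Shank1 had an ES bin. For the groups of Shank2 and Shank3 the shares were 46.4% and 36.3%. Shank1 (chromosome 7, 51565623 to 51613721) had 1 ES bin among 11 (from 51605001), which held 3171 coding bases. Most of these, 3074, belonged to exon 24, its largest coding exon. This bin had 48.6 CpG per kb, the densest of the gene and of all listed bins of the scaffold genes. Shank2 (chromosome 7, 151187833 to 151610399) had 2 touching ES bins among 87. The first (from 151595001) held the whole of exon 22, with 2407 coding bases, and at 31.6 CpG per kb was likewise the densest of its gene. The second (from 151600001) held no coding base and had 12.8 CpG per kb. In both genes, then, the ES list included the bin with the largest coding exon, the next to last of the transcript. In the other 8 scaffold genes the bins with the largest coding exon were on neither list, making 2 of 12 such bins on the ES list and 0 on the MEF list. Over the 22202 genes with coding sequence, 3.82% of such bins were on the ES list and 1.88% on the MEF list. Those genes were not matched for exon size or CpG density. Both listed bins are in the most CpG-dense of 10 equal groups of bins, of which 5.6% were on the ES list. The genes were chosen with listed bins in view, and nothing is read from these shares.

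Shank3 (chromosome 15, 89330054 to 89390692) differed from Shank1 and Shank2 at this exon. Its largest coding exon, exon 21 of 22, spans bins of 34 and 14.2 CpG per kb that were on neither list. Its 1 ES bin among 14 (from 89335001) lay 7.45 kb past the start and held exon 9, with 67 coding bases, at 13.4 CpG per kb, rank 10 of 14. In MEFs only Shank2 had a listed bin, an intronic one 44.7 kb past the start (from 151230001) with 9.4 CpG per kb. Across chromosome 7, 1.73% of bins were on the ES list and 1.07% on the MEF list; across chromosome 15 the shares were 1.87% and 3.23%. The part of these chromosome-wide shares in the counts at Shank1, Shank2, Shank3 and Homer2 was not tested.

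HOMER proteins are adaptors that assemble through coiled coils. Homer2 (chromosome 7, 88745367 to 88851811, minus strand) had 1 ES bin among 23 (from 88795001), an intronic bin 54.3 kb past the start with 12.4 CpG per kb, and 0 MEF bins. Homer1 (chromosome 13, 94073712 to 94174917) had 0 of 22 bins on either list [0% to 15.4%]. The nearest ES bin began 5.08 kb past its 3' end, outside the region counted, which takes in no downstream sequence. Homer1 had the lowest median CpG density of the 10 genes, 6.6 CpG per kb. Homer3 (chromosome 8, 72806726 to 72818260), with a median of 14.8 CpG per kb, had 0 of 4 bins on either list [0% to 60.2%], so little can be said of it.

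**Figure D3:**
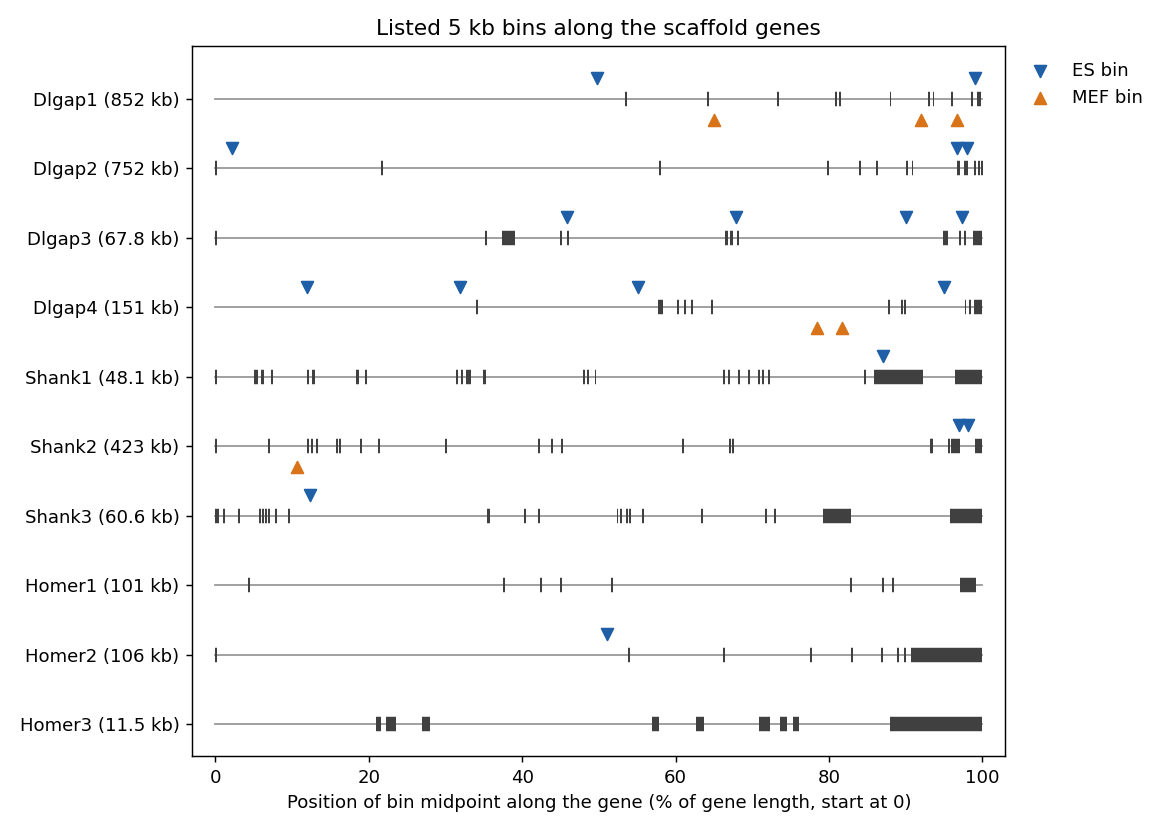
Midpoints of the listed bins along each gene in percent of gene length (start at 0), ES bins as blue triangles above the line and MEF bins as orange triangles below it; dark marks are the exons of the transcript with the longest coding sequence. Of 18 ES bins, 8 lie in the final 10% of their genes, and no listed bin holds the start of a scaffold gene.

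The place and content of the listed bins are given next as a description. The choice of genes names the Dlgap3 stretch by position, so its bins were partly chosen on place, and values without Dlgap3 are given beside the others. The bin holding the gene start was on neither list in any of the 10 genes. This start bin was the most CpG-dense of the gene in 7 of them, and its density ranged from 7.4 (Shank2) to 42.4 CpG per kb (Dlgap2). Over all genes, 3.21% of the 23380 distinct start bins were on the ES list and 2.41% on the MEF list, so a count of 0 among 10 is not a result about the scaffold genes. At the other end, 8 of 18 ES bins (44.4%) had their midpoint in the final 10% of the gene, in Dlgap1, Dlgap2, Dlgap3, Dlgap4 and Shank2. The intronic bin of Dlgap3 lay at the edge of that part, and without Dlgap3 there were 6 of 14 (42.9%). Of the 6 MEF bins 2 did so, both in Dlgap1, as did 8.82% of the 510 bins on neither list. That last share used rounded positions, which took in a few unlisted bins just outside the final 10%, so it is slightly high. In all 6302 genes of at least 40 kb, the final 10% held 11.6% of ES bins and 7.43% of MEF bins.

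Coding sequence was present in 9 of 18 ES bins (50%), or 6 of 14 without Dlgap3 (42.9%), in 1 of 6 MEF bins, and in 16.5% of the bins on neither list. Those counts take coding sequence of the scaffold gene itself. Over the whole lists, with coding sequence of any gene, 38.8% of ES bins and 22.2% of MEF bins held it, against 18.8% of all bins. The coding content of ES bins went up to 3171 bases (Shank1), whereas the MEF bin held 81 (Dlgap1). By any overlap 11 ES bins were exon bins and 7 intron bins, with 0 promoter bins (within 1 kb of an annotated gene start). The whole ES list held 36.0% exon, 23.3% intron, 11.7% promoter and 29.0% intergenic bins, and the whole MEF list 37.7% intergenic bins. The regions counted here are gene bodies and the 5 kb upstream, which hold few intergenic bins. Shares of the whole lists in this paragraph, for coding sequence too, are therefore not of a like set. Starts of single annotated transcripts inside a gene are not counted in the promoter class. Within 1 kb of such starts of the scaffold gene itself lay 5 ES bins, 2 in Dlgap4 and 1 each in Dlgap3, Shank1 and Shank2, and 1 MEF bin, in Dlgap1. Counting transcript starts of any gene there were 6 of 18 ES and 2 of 6 MEF bins, beside 23.2% and 16.3% of the whole lists. Of the MEF bins 1 was a promoter bin, through the start of Gm16952, 1 was an exon bin and 4 were intron bins. Exons of any annotated gene count here; an exon of the scaffold gene itself lay in 10 ES bins and 1 MEF bin.

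Median CpG density was 13.6 CpG per kb in the ES bins, 10.5 in the MEF bins and 9.2 in the bins on neither list, beside 12.6 in all ES bins, 11 in all MEF bins and 7 in all bins. The ranges overlapped, at 8.8 to 48.6, 8.4 to 21.8 and 2.4 to 42.4. Split by CpG density over the genome, 16 of the 18 ES bins and 3 of the 6 MEF bins had at least 11.4 CpG per kb, the lower bound of the 2 densest of 10 equal groups. In the densest group the scaffold genes had 74 bins, of which 10.8% were on the ES list [4.78% to 20.2%] and 1.35% on the MEF list [0.0342% to 7.3%], beside 5.6% and 3.69% of all such bins. In the next group, 8.89% of 90 were on the ES list [3.92% to 16.8%] and 2.22% on the MEF list [0.27% to 7.8%], beside 4.67% and 4.25%. Over both groups together, 9.76% of the scaffold genes' 164 bins were on the ES list [5.68% to 15.4%] and 1.83% on the MEF list [0.379% to 5.25%], beside 5.13% and 3.97% of all such bins. The genes were chosen with listed bins already in view, so nothing is read from the ES or the MEF shares.

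**Figure D4:**
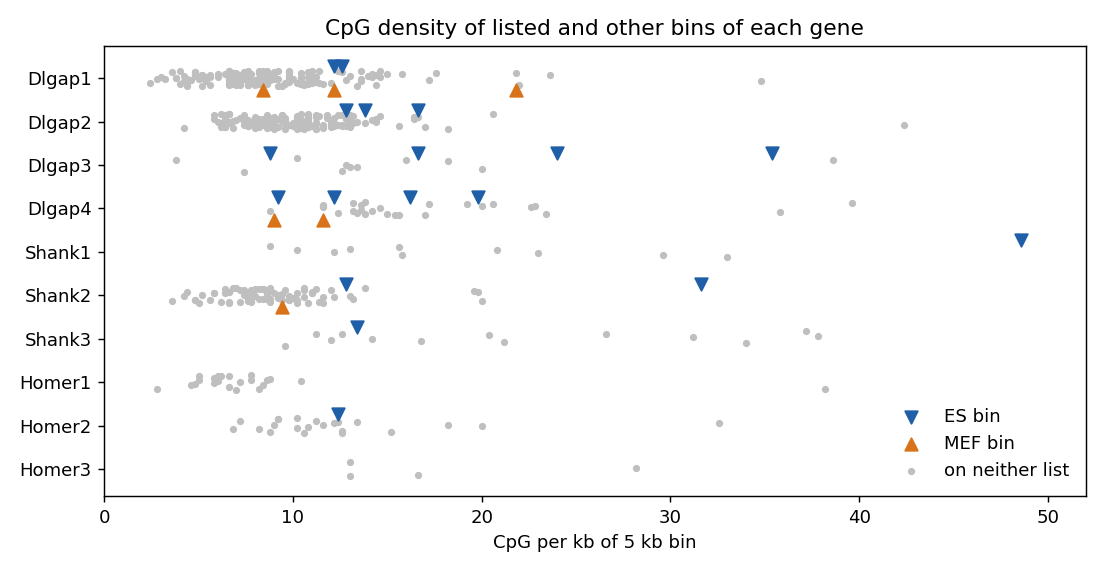
CpG per kb of every bin of each gene (horizontal axis), ES bins as blue and MEF bins as orange triangles, bins on neither list as grey points spread vertically for legibility. An ES bin of Shank1 (48.6) and one of Shank2 (31.6) are the densest of their genes. Homer1 and Homer3, with no listed bin, have medians of 6.6 and 14.8.

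No bin of the scaffold genes was on both lists, and none of the 18 ES bins had a MEF bin within 10 kb. Over the whole ES list, 4.75% of the 8545 bins were also on the MEF list and 21.9% were on it or had a MEF bin within 10 kb. In the 3 genes with both, the nearest pair of ES and MEF bins was 20 kb apart in Dlgap1 and in Dlgap4 and 365 kb apart in Shank2, measured start to start. Over all genes 5.9% had a bin on each list. The 3 scaffold genes with both are among the longest 10% of all genes, so 5.9% is not a share for their length. Among those longest genes 46.4% had an ES bin, and only 17.7% had an ES bin without a MEF bin.

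A further 43 postsynaptic genes were chosen for their function, with earlier results of these data known. Of these genes 16 had an ES bin and 16 a MEF bin (37.2% each), 9 of them both. They carried 31 ES and 43 MEF bins, whereas the scaffold genes had 18 and 6. That difference between the gene groups was not tested. Median gene length was 151 kb in the 43 other genes and 104 kb in the scaffold genes. Over all genes 19.8% had an ES bin and 14.1% a MEF bin, and among the longest 10% of genes 46.4% and 45.5%. Of 12 scaffold partners 4 had an ES bin and 6 a MEF bin. Magi1, a membrane-associated scaffold gene of 608 kb, had 4 ES and 5 MEF bins, and Sipa1l1, a RapGAP gene of dendritic spines, had 3 and 1. Dlg2, which encodes PSD-93 over 1950 kb, had 0 and 4. Of 11 glutamate receptor genes 5 had an ES bin and 4 a MEF bin, none with 3 or more on a list. The 7 adhesion genes, neuroligins and LRRTMs with a median length of 30.1 kb, had 0 on either list. Of 13 effectors and HOMER or SHANK ligands, 7 had an ES bin and 6 a MEF bin. Kalrn had 2 ES and 10 MEF bins. Of the inositol trisphosphate receptor genes, Itpr1 had 2 ES and 7 MEF bins and Itpr2 had 4 and 1. Dnm3, the dynamin gene whose product binds HOMER, had 0 and 3, and Camk2b, a calcium/calmodulin kinase gene, had 3 and 0.

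Genes with a pattern like Dlgap3 were those with 4 or more ES bins joined within 10 kb and 0 MEF bins. There were 4 others among 26031 genes. They were Igf2r (chromosome 17, 12880001 to 12900000), the imprinted receptor gene, Dnmbp (chromosome 19, 43960001 to 43980000), Ndrg4 (chromosome 8, 98195001 to 98225000) and Rnf165. Each had 4 ES bins in the stretch. In total 178 genes had 4 or more ES bins, and 39 of these had no MEF bin. The limits used for this pattern are the values of Dlgap3 itself, whose gaps equal 10 kb, and other limits were not counted. The number of genes like Dlgap3 is therefore a description and no measure of rarity.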

How the data were processed

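Genomic DNA of LSH knockout and wild-type ES cells and MEFs was sonicated, and 5hmC fragments were glucosylated, biotinylated and captured, per the labels' protocols. BWA and SAMtools 1.3.1 on mm9 are named without their role, per the submitters' processing notes. How reads were counted, and the caller of bins and its threshold, are all not given in the sources used here. What the authors deposited is other than a level: start and end positions of listed 5 kb bins, with no count, fold, p-value or direction. Depth is unknown.

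Bin numbers of 8545 ES and 8972 MEF bins on chromosomes 1 to 19 and X matched the NCBIM37 (mm9) reference, used with GENCODE M1. Shares over all bins leave out those over 50% undetermined. Genes were protein-coding, lincRNA and processed transcript models, the longest kept per name. GC, CpG and the share of sampled 32-base words that recur in the genome (repeated sequence) were computed per bin. Intervals are exact 95% binomial, for counts of 0 too. Counting was tested on planted bins. No test was run: each group has 1 library and the genes and gene lists were chosen with earlier results of these data known. All members were named; partner genes were named with 3 or more bins on a list, and at most 5 genes like Dlgap3. Alternatives covered the region, overlap, repeats, joining, class rules and members. Python 3.11.15, numpy 2.4.6, pandas 2.3.3, scipy 1.17.1, numba 0.67.0 and matplotlib 3.10.9 were used.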

Additional observations from a re-analysis of the deposited data

How the results depend on the processing

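The 18 ES and 6 MEF bins, in 8 and 3 genes, were the same numbers with the gene body alone, with 10 kb upstream and by bin midpoint. With the coding extent there were 14 ES bins, and without bins over 20% repeated sequence 17, with 6 MEF bins in each case. Keeping only bins within 10 kb of another on their list, in place of a stricter score that the lists do not hold, left 8 ES bins in 3 genes and 2 MEF bins in 1 gene. Without the genes that overlap another annotated gene, which leaves Dlgap3, Shank1 and Homer1, there were 5 ES bins in 2 genes, with a median of 24 CpG per kb, and 0 MEF bins in 0 genes, so no MEF median. Leaving out each gene in turn gave 14 to 18 ES bins in 7 to 8 genes, with medians of 13.1 to 15 CpG per kb, and 3 to 6 MEF bins in 2 to 3 genes, with medians of 9.4 to 11.6; the 3 MEF bins are those without Dlgap1. Joined only where they touch, the longest Dlgap3 stretch had 2 bins, and within 20 kb 4. By bin midpoint 3 ES bins were exon and 15 intron bins, and 0 MEF bins were promoter and 0 exon bins, since the midpoint takes in less of each bin. Without Dlgap3, an alternative chosen after seeing the data, 6 ES bins held coding sequence and 6 lay in the final 10% of their gene, against 9 and 8 with it. No ES bin gained a MEF neighbour within 10 kb. No paired analysis was possible because each group has 1 library. The unknown read depth, threshold and direction limit all counts.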
